A study of Homo sapiens with 8 samples.

Results

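The SHC adaptors and the proteins that link them to RAS were followed as 10 genes of 18164 in the table of transcript levels: SHC1, SHC2, SHC3, SHC4, GRB2, SOS1, SOS2, GAB1, GAB2 and PTPN11. They were chosen by symbol, with earlier results of these data known. The tumors were xenografts of HCC1937, an established line from a human triple-negative breast carcinoma, grown in the inguinal mammary fat pad of immunodeficient NCG mice. Of the 8 tumors, 4 came from mice given nicotinamide mononucleotide (NMN, from which cells make NAD+) at a daily 500 mg/kg and 4 from mice given vehicle. They are called NMN 1 to 4 and Vehicle 1 to 4. All 8 share 1 cell line and 1 host strain, so they give no view of other tumors, and NCG mice lack mature T, B and NK cells. The title of the series names SIRT1 and p66Shc, which SHC1 encodes, and comparing NMN with Vehicle asks whether the transcripts of the adaptor step differed.

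SHC proteins are cytoplasmic adaptors that bind phosphorylated tyrosines of activated receptors and are themselves phosphorylated on tyrosines followed, after any residue, by asparagine. GRB2 binds these sites through its SH2 domain and brings along SOS1 or SOS2, exchange factors that load RAS with GTP. GAB1 and GAB2 are docking proteins carried by GRB2 that recruit the phosphatase SHP2, encoded by PTPN11, and PI3-kinase. The long SHC1 product p66Shc has an additional amino-terminal region, restrains rather than promotes RAS signaling, and takes part in the production of reactive oxygen species in mitochondria. Deacetylation of p66Shc by SIRT1 acts on the protein, which transcript levels do not measure.

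The first stretch shown is the coding sequence that sets p66Shc apart, because the deposited value is 1 number for SHC1 and holds all its products. Of 5 complete coding transcripts of SHC1 in GENCODE 29, 2 encode the long form, with 583 or 584 codons. Another 2 start 110 codons further in and encode the p52Shc form with 473 or 474 codons, from which p46Shc arises by a later start, and the last has 354 codons. Codons 1 to 84 of the long form lie in 1 exon at chr1:154970275-154970526 on the minus strand of GRCh38. Capitals mark codon 36, the serine described as phosphorylated under oxidative stress, and codon 81, the lysine described as deacetylated by SIRT1.
SHC1 long form, codons 1 to 84: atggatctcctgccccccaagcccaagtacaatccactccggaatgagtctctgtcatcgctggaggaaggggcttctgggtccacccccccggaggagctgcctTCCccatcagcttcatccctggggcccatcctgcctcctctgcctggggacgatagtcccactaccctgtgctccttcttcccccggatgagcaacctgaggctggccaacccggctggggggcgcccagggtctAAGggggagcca

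The long and the p52Shc transcripts start at different places, and the windows before both starts are shown because the SHC1 value sums transcription from both. The upstream RefSeq start, of p52Shc and p46Shc, lies at position 154974376 of chromosome 1 and the downstream start at 154970747, a distance of 3629 bases. At the downstream position start a long-form transcript, which encodes p66Shc, and the transcript with 354 codons. The other long-form transcript starts at 154970741. Both windows hold the 250 bases before the start, on the minus strand of GRCh38.p14, at chr1:154974377-154974626 and chr1:154970748-154970997. Capitals mark CCAAT on either strand (CCAAT or ATTGG), which the upstream window held 4 times and the downstream window once. At least 1 copy was found in 32.0% of 35116 RefSeq windows of this length, so a copy is common. The upstream window had 16 CpG dinucleotides and the downstream window 5, against a median of 11. A match is a description of the letters only.
SHC1 upstream start: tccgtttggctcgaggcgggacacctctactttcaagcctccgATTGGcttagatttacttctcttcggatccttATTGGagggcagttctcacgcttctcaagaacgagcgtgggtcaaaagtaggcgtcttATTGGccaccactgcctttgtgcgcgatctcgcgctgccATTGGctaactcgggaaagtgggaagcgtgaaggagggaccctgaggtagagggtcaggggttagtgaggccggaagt
SHC1 downstream start: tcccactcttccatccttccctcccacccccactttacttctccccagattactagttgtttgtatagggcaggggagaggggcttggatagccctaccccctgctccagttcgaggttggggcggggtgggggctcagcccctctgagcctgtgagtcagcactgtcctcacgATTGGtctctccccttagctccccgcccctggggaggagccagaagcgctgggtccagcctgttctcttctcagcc

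The sites that tie the SHC family to GRB2 are shown because they are what the 4 paralogs share. Each gene codes for a first site with a pair of tyrosines before the asparagine and a second site with 1 tyrosine, and each stretch below has 30 coding bases within 1 exon, on the minus strand. Capitals mark the codons for tyrosine, any residue and asparagine. SHC4 has 3 such stretches in its coding sequence and the other genes have 2, and the additional stretch of SHC4 is not shown. SHC1 has its first site at chr1:154966439-154966468 and its second at chr1:154966034-154966063. The SHC2 sites lie at chr19:434790-434819 and chr19:425149-425178, the SHC3 sites at chr9:89046919-89046948 and chr9:89042099-89042128, and the SHC4 sites at chr15:48856058-48856087 and chr15:48843482-48843511. The first site shared 18 of 30 bases with SHC1 in SHC2, 19 in SHC3 and 18 in SHC4, and the second site shared 19, 20 and 18.
SHC1 first site: cctgaccatcagTACTATAATgacttcccg
SHC2 first site: ttggagcacaatTACTACAACagcatcccg
SHC3 first site: tcagaccacccaTACTACAACagcatccca
SHC4 first site: gaagatcatgaaTATTACAATgaaattcca
SHC1 second site: gatgatccctccTATGTCAACgtccagaac
SHC2 second site: gaggagcacctgTATGTCAACacccagggt
SHC3 second site: gaagcacccaccTACGTCAACactcagcag
SHC4 second site: gatgacccctgcTACATTAATacacaggct

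The values are TPM (transcripts per 1000000), a level per unit of transcript length that sums to 1000000 in each library, so levels can be compared between genes. Since TPM holds no read depth, the depth stays unknown and counting error cannot be given. Between 16451 and 16662 genes were above 0 per library. All 10 genes of the breast carcinoma epithelial list passed the filter on low values. Their summed level ran from 10611 to 13337 TPM with NMN and from 9923 to 18444 TPM with Vehicle. The list includes VIM, which is not particular to epithelium, at 131 TPM with NMN and 134 TPM with Vehicle. The 11 blood and immune cell markers in the table summed to 52.47 to 108.14 TPM in NMN tumors and 61.1 to 89.96 TPM in Vehicle tumors. Most of this came from CD68, at 45.1 ± 17.6 TPM with NMN and 34.9 ± 10.96 TPM with Vehicle, and CD74, at 29.2 ± 13.05 and 22.5 ± 5.74 TPM, while PTPRC averaged 0.168 and 0.313 TPM. Of the fibroblast markers, DCN and LUM were at or near 0. In contrast, COL1A1, COL1A2 and COL3A1 averaged 94.0, 43.7 and 19.8 TPM with NMN, against 140.2, 65.7 and 30.1 TPM with Vehicle. All 5 tested fibroblast markers averaged lower with NMN. The 17 skeletal muscle markers summed to 119, 129 and 142 TPM in NMN 1 to 3 and to 823 TPM in NMN 4, against 553 to 3130 TPM in the Vehicle tumors. The 10 fibroblast markers summed to 121 to 237 TPM with NMN and 192 to 292 TPM with Vehicle. The part of muscle, blood cells and stroma in the values below was not tested. In RNA from whole tumors, fewer cells of a type and less RNA per cell cannot be told apart, and reads of mouse transcripts that align to human genes can enter any value.

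None of the members passed the test between NMN and Vehicle tumors. Of the 10 members, 9 reached 1 TPM in at least 4 libraries and were tested by limma on log2(TPM + 1) over 13358 genes, and SHC2 did not. At an adjusted p under 0.05 stood 0 of 9 members, against 0% of all tested genes. At an unadjusted p under 0.05 stood 1 member, SOS1, with the higher mean in NMN tumors, against 4.79% of tested genes in that direction and 2.15% in the other. In 0 of 9 members did the 4 NMN tumors all lie above or all below the 4 Vehicle tumors, which 2.08% and 0.966% of tested genes did. The mean was higher in NMN tumors for 6 of the 9 and for 51.0% of tested genes, with a median log2 fold change of 0.16 against 0.00 for all tested genes. SHC4 entered the 9 through the NMN group, in which all 4 tumors reached 1 TPM against 1 of 4 Vehicle tumors, so its direction is tied to how it passed the filter. Over all genes, leaving out NMN 4 gave 53 calls and leaving out Vehicle 3 gave 1, and in no such fit was a member called, with adjusted p of at least 0.316.

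**Figure D1:**
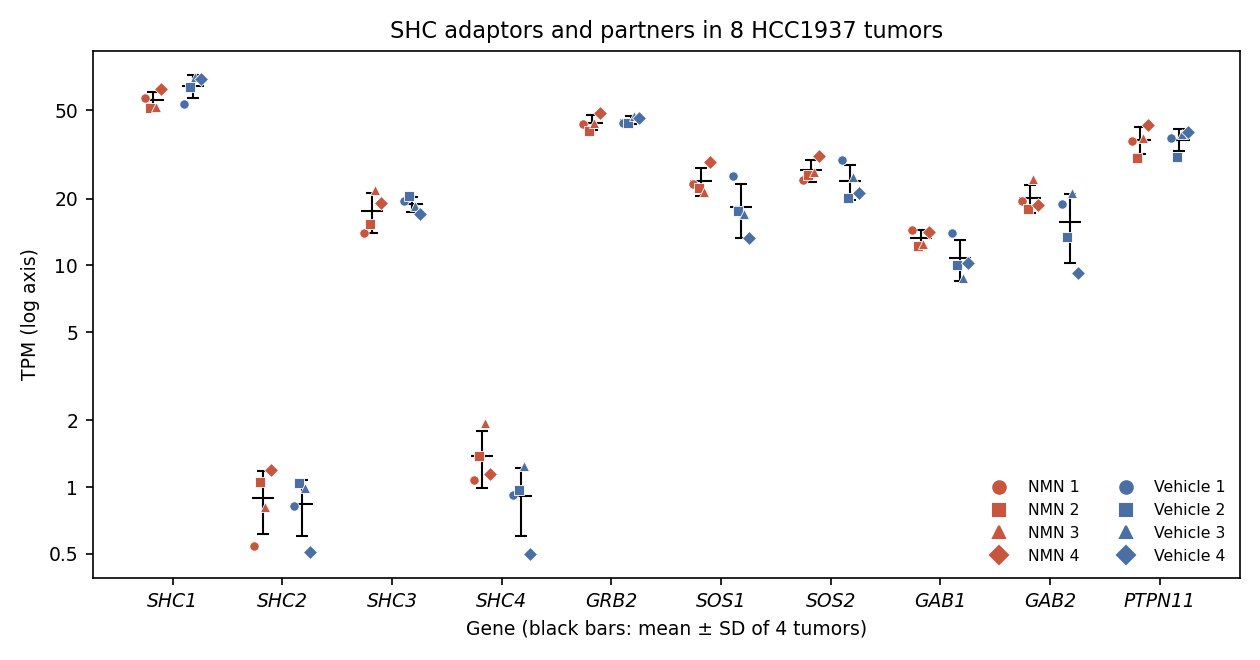
TPM (log axis) of the 10 genes in each of 8 tumors, with NMN tumors left of Vehicle tumors, 1 symbol per replicate number and black bars for the mean ± SD of 4 tumors. SHC1 lies highest, between 51.19 and 70.91 TPM, SHC2 and SHC4 lie between 0.50 and 1.95 TPM, and in every gene the groups overlap.

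By level the genes spanned the adaptor SHC1 at the top and its paralogs SHC2 and SHC4 at the bottom. Over all 8 tumors, SHC1 averaged 59.98 ± 7.79 TPM (SD, n = 8), higher than 85.7% of the genes in the table, and GRB2 averaged 44.7 ± 2.63 TPM. The SHC1 and GRB2 ranges did not overlap. PTPN11 followed at 36.9 ± 4.35 TPM, below GRB2 in 8 of 8 tumors, then SOS2 at 25.4 ± 3.81 TPM and SOS1 at 21.2 ± 5.05 TPM, with SOS2 above SOS1 in 8 of 8 tumors. SHC3 at 18.2 ± 2.63 TPM and GAB2 at 17.9 ± 4.66 TPM were not separated from SOS1 or from each other. SOS1 was above SHC3 in 4 of 8 tumors, and SHC3 was above GAB2 in 4 of 8. GAB1 averaged 12.0 ± 2.13 TPM and lay under GAB2 in 7 of 8 tumors. SHC4, at 1.15 ± 0.416 TPM, and SHC2, at 0.869 ± 0.246 TPM, lay far under GAB1, and SHC4 was above SHC2 in 5 of 8 tumors.

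SHC1, the adaptor expressed in most tissues, was at 56.62, 51.19, 51.98 and 62.15 TPM in NMN 1 to 4, against 53.56, 63.87, 70.91 and 69.57 TPM in Vehicle 1 to 4. Vehicle 1 lay inside the NMN range and the other 3 Vehicle tumors lay above all NMN tumors, so the groups overlapped through Vehicle 1 alone. SHC1 thus had a log2 fold change of -0.21 ± 0.11 (95% interval from -0.46 to 0.04, adjusted p = 0.819). Without Vehicle 1 it was -0.29, with an adjusted p of 0.461. The gene lies on chromosome 1 from 154962298 to 154974395, minus strand, and its annotated exons overlap exons of PYGO2 on the same strand and an antisense gene. It also has 2 processed pseudogenes, SHC1P1 and SHC1P2, so a part of its reads can be shared. PYGO2 averaged 45.7 ± 6.65 TPM with NMN and 46.7 ± 2.45 TPM with Vehicle.

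SHC3, which encodes an adaptor known mainly from neurons (chromosome 9, 89005771 to 89178767, minus strand), was the second most abundant SHC transcript. It was at 13.98, 15.36, 21.81 and 19.09 TPM in NMN 1 to 4, against 19.51, 20.54, 18.46 and 17.02 TPM in Vehicle 1 to 4. All 4 Vehicle values lay inside the wider NMN range, and the log2 fold change was -0.12 ± 0.15 (interval from -0.45 to 0.21, adjusted p = 0.957). Without NMN 1 it was -0.02. The neuronal markers RBFOX3 and SYP averaged 1.66 and 1.75 TPM with NMN and 1.03 and 1.35 TPM with Vehicle. MAP2 averaged 4.60 and 2.28 TPM, and its groups did not overlap, as in 2.08% of tested genes with NMN higher. Of the 5 tested neuron and Schwann cell markers, 4 averaged higher with NMN and 1, TUBB3, lower, at 9.415 against 10.26 TPM. The 8 neuron and Schwann cell markers together summed to 15.09 to 23.02 TPM with NMN and 12.9 to 20.2 TPM with Vehicle, and their part in the SHC3 level was not tested.

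SHC4, an adaptor known from melanoma cells and from brain and muscle (chromosome 15, 48823735 to 48963444, minus strand), was at 1.08, 1.38, 1.95 and 1.14 TPM in NMN 1 to 4, against 0.92, 0.97, 1.24 and 0.50 TPM in Vehicle 1 to 4. Of the Vehicle tumors 3 lay below all NMN tumors, and Vehicle 3 lay among them. The log2 fold change was 0.32 ± 0.19 (interval from -0.09 to 0.74, adjusted p = 0.836), and it depended on the pseudocount, with 0.58 at a pseudocount of 0.1 and 0.11 at one of 5. EID1, at 58.6 ± 4.29 TPM with NMN and 52.4 ± 10.2 TPM with Vehicle, overlaps SHC4 exons on the opposite strand. The sources used here do not say whether the libraries were stranded, and reads of EID1 could enter the SHC4 value. SHC2, an adaptor known from neurons (chromosome 19, 416583 to 460996, minus strand), was at 0.54, 1.05, 0.81 and 1.19 TPM in NMN 1 to 4, against 0.82, 1.04, 0.99 and 0.51 TPM in Vehicle 1 to 4. The ranges overlapped, with NMN 2 and NMN 4 above all Vehicle tumors, and SHC2 was not tested.

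The shares of the 4 genes in the SHC family overlapped between the groups for SHC1, SHC2 and SHC3, and for SHC4 they nearly touched. SHC1 held 73.7 ± 4.34% of the summed SHC TPM with NMN and 75.6 ± 3.50% in Vehicle tumors (SD, n = 4 each). SHC3 held 23.2 ± 3.82% in NMN tumors and 22.4 ± 3.12% in Vehicle tumors. SHC4 held 1.85 ± 0.539% and SHC2 1.19 ± 0.355% in NMN tumors, against 1.07 ± 0.345% and 0.991 ± 0.278% in Vehicle tumors. The SHC4 share was lowest among NMN tumors in NMN 4, at 1.364%, and highest among Vehicle tumors in Vehicle 3, at 1.354%. This gap is within the rounding of the low SHC4 values, and SHC4 passed the filter through the NMN group. The separation was seen after the values were known and was not tested. The lowest and highest SHC1 shares were those of NMN 3, where SHC1 held 67.9% and SHC3 28.5%, and Vehicle 4, where SHC1 held 79.4% and SHC3 19.4%. The sum itself was 75.3 ± 6.31 TPM with NMN and 85.1 ± 7.21 TPM with Vehicle.

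**Figure D2:**
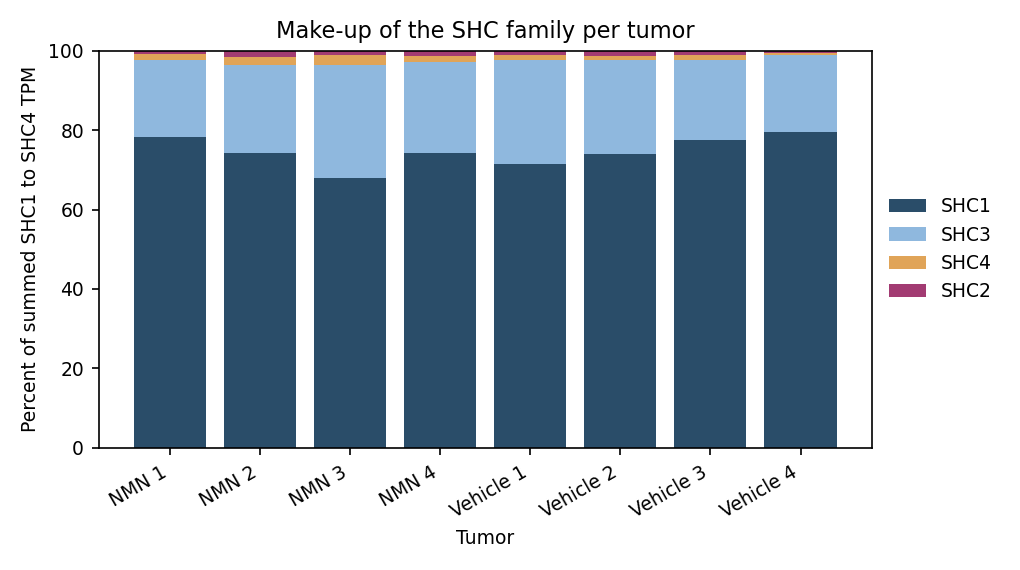
Percent of the summed TPM of SHC1 to SHC4 held by each gene, 1 bar per tumor, NMN tumors left of Vehicle tumors. SHC1 and SHC3 together fill nearly all of every bar, and the SHC1 share runs from 67.9% in NMN 3 to 79.4% in Vehicle 4.

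GRB2, the linker between SHC and SOS (chromosome 17, 75318076 to 75405709, minus strand), was the steadiest member. Its level was 43.44, 40.19, 43.79 and 48.50 TPM in NMN 1 to 4, against 43.78, 43.97, 47.38 and 46.29 TPM in Vehicle 1 to 4. All Vehicle values lay inside the NMN range. Its SD within groups was 0.086 on the log2 scale, against a median of 0.21 over all tested genes, and only 2.88% of tested genes had a smaller one. The log2 fold change was -0.05 ± 0.10 (interval from -0.26 to 0.17, adjusted p = 0.976). Set against GRB2 in the same tumor, SHC1 stood at a ratio of 1.30, 1.27, 1.19 and 1.28 in NMN 1 to 4, against 1.22, 1.45, 1.497 and 1.503 in Vehicle 1 to 4. Vehicle 1 lay inside the NMN range of this ratio and the other 3 Vehicle tumors lay above it. The mean log2 ratio differed by -0.17 (NMN minus Vehicle), with an exact two-sided permutation p = 0.114 and an adjusted p of 0.286 over the 4 ratios tested. With 4 tumors on each side, p cannot go below 0.0286.

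SOS1, an exchange factor for RAS and RAC (chromosome 2, 38981396 to 39124345, minus strand), stood farthest from 0 for its error. It was at 23.25, 22.29, 21.49 and 29.11 TPM in NMN 1 to 4, against 25.29, 17.61, 16.96 and 13.29 TPM in Vehicle 1 to 4. As with SHC1, Vehicle 1 lay inside the NMN range, and the other 3 Vehicle tumors lay on 1 side of it, here below. The log2 fold change was 0.40 ± 0.18 (interval from 0.01 to 0.80, adjusted p = 0.711), or 1.32-fold on the TPM + 1 scale. Its interval alone among the members excluded 0, before any adjustment over genes. It was 0.56 without Vehicle 1 and 0.27 without Vehicle 4, with adjusted p of at least 0.316 in every fit made. SOS2, its paralog (chromosome 14, 50117120 to 50231558, minus strand), was at 24.16, 25.60, 26.49 and 31.21 TPM in NMN 1 to 4, against 29.77, 20.06, 25.06 and 21.23 TPM in Vehicle 1 to 4. Of the Vehicle tumors, 2 lay below all NMN tumors and 2 inside their range, and the log2 fold change was 0.16 ± 0.14 (interval from -0.15 to 0.48, adjusted p = 0.922). With library weights it was 0.05.

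The balance of both exchange factors was compared within tumors, where library scaling cancels. The SOS1 to SOS2 ratio was 0.962, 0.871, 0.811 and 0.933 in NMN 1 to 4, against 0.850, 0.878, 0.677 and 0.626 in Vehicle 1 to 4. Vehicle 3 and Vehicle 4 lay below all NMN tumors and Vehicle 1 and Vehicle 2 inside their range. The mean log2 ratio differed by 0.25 (exact permutation p = 0.143, adjusted p = 0.286), so no difference beyond the spread between tumors was shown.

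GAB1, a docking protein downstream of EGFR and MET (chromosome 4, 143336762 to 143474568, plus strand), was at 14.43, 12.17, 12.48 and 14.12 TPM in NMN 1 to 4, against 13.99, 10.04, 8.81 and 10.20 TPM in Vehicle 1 to 4. Again 3 Vehicle tumors lay below all NMN tumors and Vehicle 1 inside their range. The log2 fold change was 0.30 ± 0.15 (interval from -0.04 to 0.64, adjusted p = 0.804), and 0.42 without Vehicle 1. GAB2, a docking protein known as a driver of breast tumor growth in mouse models (chromosome 11, 78215297 to 78418348, minus strand), was at 19.42, 17.98, 24.40 and 18.79 TPM in NMN 1 to 4, against 18.86, 13.47, 21.11 and 9.19 TPM in Vehicle 1 to 4. Vehicle 1 and Vehicle 3 lay inside the NMN range. Its spread within groups, 0.38 on the log2 scale, was larger than that of 88.0% of tested genes, and the log2 fold change was 0.40 ± 0.22 (interval from -0.09 to 0.88, adjusted p = 0.825). Without Vehicle 4 it was 0.18.

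The GAB1 to GAB2 ratio was 0.743, 0.677, 0.511 and 0.751 in NMN 1 to 4, against 0.742, 0.745, 0.417 and 1.11 in Vehicle 1 to 4. The 4 NMN ratios lay inside the Vehicle range, and GAB1 exceeded GAB2 in Vehicle 4 alone. The mean log2 ratio differed by -0.10 (exact permutation p = 0.857, adjusted p = 0.857), and the sign turned without NMN 3 or without Vehicle 4.

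**Figure D3:**
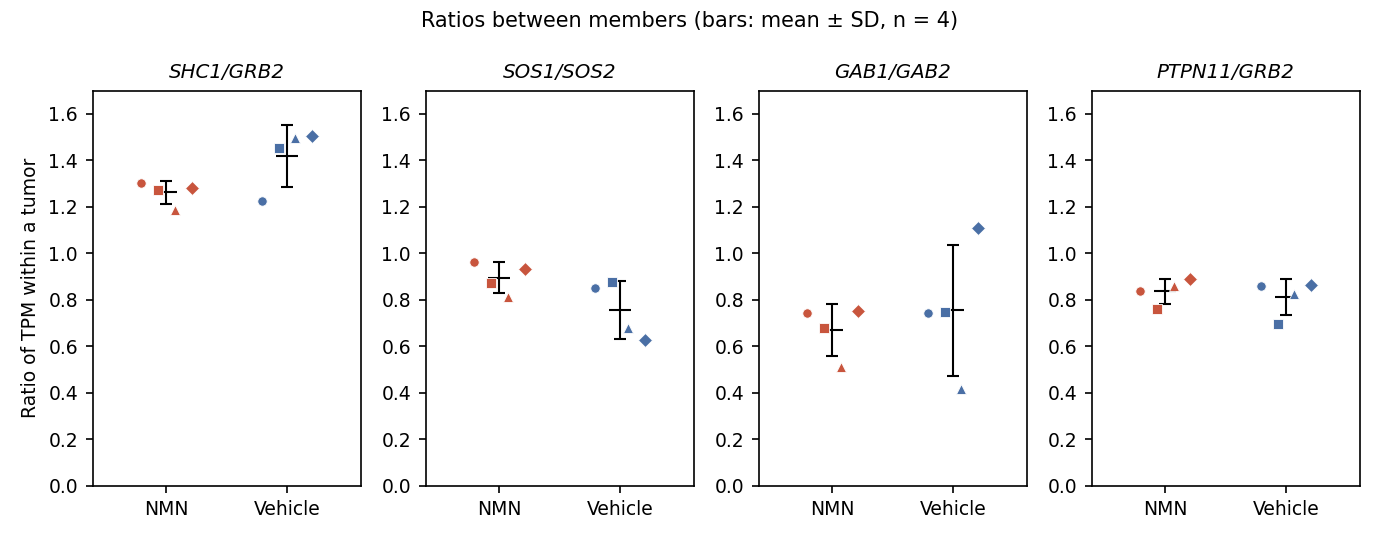
Ratio of TPM within each tumor for SHC1/GRB2, SOS1/SOS2, GAB1/GAB2 and PTPN11/GRB2, NMN tumors left of Vehicle tumors, with circle, square, triangle and diamond for replicates 1 to 4 and black bars for the mean ± SD (n = 4 each). Vehicle 1 lies among the NMN tumors for SHC1/GRB2, at 1.22, and the other 3 Vehicle tumors lie above them.

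PTPN11, the phosphatase SHP2 that GAB proteins recruit (chromosome 12, 112418351 to 112509913, plus strand), was at 36.42, 30.60, 37.53 and 43.12 TPM in NMN 1 to 4, against 37.67, 30.65, 39.09 and 39.91 TPM in Vehicle 1 to 4. All Vehicle values lay inside the NMN range. The log2 fold change was 0.00051 ± 0.13 (interval from -0.28 to 0.29, adjusted p = 0.999), and its sign turned under median-of-ratios and quantile scaling and with library weights. Its annotated exons overlap RPL6 on the opposite strand, which averaged 1718 ± 215 TPM with NMN and 1749 ± 68.99 TPM with Vehicle, so reads of RPL6 could enter the PTPN11 value. Against GRB2 in the same tumor, PTPN11 stood at 0.836 ± 0.0543 in NMN tumors and 0.811 ± 0.0780 in Vehicle tumors. The mean log2 ratio differed by 0.05 (exact permutation p = 0.6, adjusted p = 0.8).

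**Figure D4:**
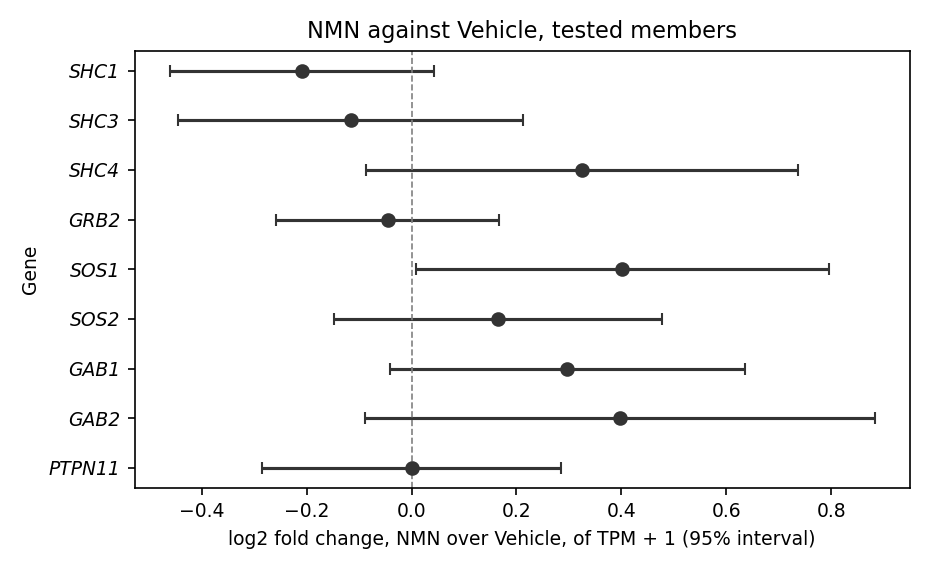
Log2 fold change of TPM + 1, NMN over Vehicle, of the 9 tested members, with 95% intervals from limma. The intervals of all but SOS1 include 0, and the interval of SOS1 runs from 0.01 to 0.80 before any adjustment over genes.

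Across the tumors the members did not share 1 order. NMN 4 held the highest value of 5 members, SHC2, GRB2, SOS1, SOS2 and PTPN11, and NMN 3 that of 3, SHC3, SHC4 and GAB2. NMN 2 held the lowest value of SHC1, GRB2 and PTPN11, and Vehicle 4 that of SHC2, SHC4, SOS1 and GAB2. The 10 genes summed to 233.34, 217.81, 242.73 and 268.42 TPM in NMN 1 to 4, against 244.17, 222.22, 250.01 and 227.71 TPM in Vehicle 1 to 4, and the groups overlapped. NMN 4, which carried muscle transcripts at the level of the Vehicle tumors, was thus the tumor with the highest sum. Without NMN 4 the log2 fold changes were -0.26 for SHC1, 0.31 for SOS1, 0.27 for GAB1 and 0.43 for GAB2, and none passed.

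The genes whose pattern over the 8 tumors was most like that of SHC1 were DHRS13, PHF19, PES1, UBAC1 and CRELD2. Likeness was the root mean square difference between the deviations of log2(TPM + 1) from each gene's mean, and it was 0.045 for DHRS13, 0.048 for PHF19, 0.052 for PES1, 0.055 for UBAC1 and 0.060 for CRELD2. Its median over all 13357 other tested genes was 0.24, and the deviations of SHC1 itself had a root mean square of 0.17. DHRS13 was at 17.22, 15.36, 16.62 and 19.78 TPM in NMN 1 to 4, against 17.51, 20.16, 21.91 and 20.71 TPM in Vehicle 1 to 4, with Vehicle 1 again inside the NMN range. Of the members, GRB2 came nearest to SHC1 at 0.12, with rank 451, followed by PTPN11 at 0.19, with rank 3229. GAB2 was the least like, at 0.50, with rank 12327, and SOS1 stood at 0.45. The 5 genes were picked as the extremes of 13357, so their likeness carries no test.

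Among the genes around the adaptor step none passed either, although some had larger log2 fold changes than any member, up to 1.22. Of 129 genes in 9 lists of the pathway, 104 were tested by limma and 0 passed. Of the 104, 70 averaged higher with NMN, or 67.3%, against 51.0% of all tested genes, and 34 averaged lower. The list counts below stand against the same 51.0%. The median log2 fold change was 0.07 against 0.00 over all tested genes. At an unadjusted p under 0.05 stood 8 of the 104 with the higher mean, or 7.69%, against 4.79% of all tested genes. Another 2 had the lower mean, or 1.92%, against 2.15%. DOK5, whose direction the filter fixed, is among the 70 and the 8. In 5 genes, or 4.81%, the lowest NMN tumor lay above the highest Vehicle tumor, against 2.08% of tested genes, and 1 of the 5, DOK5, was bound to do so by the filter. In 1 gene, or 0.962%, the order was the opposite, against 0.966%. The lists were chosen with earlier results of these data known, so these shares are descriptions.

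Among 15 tested receptor tyrosine kinases, 7 averaged higher and 8 lower with NMN (median log2 fold change -0.03). EGFR, a receptor that recruits SHC1 and GRB2, was at 51.2 ± 5.68 TPM with NMN and 53.9 ± 10.6 TPM with Vehicle. ERBB2 stood at 100.2 ± 19.8 TPM and 99.8 ± 22.4 TPM. KIT, the stem cell factor receptor, was at 18.03, 19.07, 23.30 and 17.05 TPM in NMN 1 to 4, against 15.67, 7.63, 15.20 and 6.04 TPM in Vehicle 1 to 4. Its groups did not overlap, with a log2 fold change of 0.84 ± 0.26 (adjusted p = 0.428). AXL and MET, at 5.22 ± 0.579 and 8.93 ± 0.934 TPM with NMN, against 7.12 ± 1.65 and 11.5 ± 2.87 TPM with Vehicle, had log2 fold changes of -0.37 ± 0.18 and -0.32 ± 0.17.

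Of 19 tested adaptors and docking proteins other than the members, 16 averaged higher and 3 lower with NMN (median log2 fold change 0.13). DOK5, a docking protein of insulin and neurotrophin receptors, was at 1.67, 2.69, 4.4 and 1.21 TPM in NMN 1 to 4, against 0.83, 0.41, 0.19 and 0.69 TPM in Vehicle 1 to 4. The log2 fold change was 1.13 ± 0.27 (adjusted p = 0.268), but DOK5 passed the filter through the NMN tumors alone, which fixed its direction and kept its groups from overlapping. IRS2, the insulin receptor substrate, was at 13.9 ± 1.98 TPM with NMN and 10.03 ± 1.35 TPM with Vehicle, with no overlap (log2 fold change 0.43 ± 0.15, adjusted p = 0.5002). NCK1, an adaptor to the actin cytoskeleton, had a log2 fold change of 0.35 ± 0.13 with overlap (adjusted p = 0.584).

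Of 15 phosphatases, ligases and inhibitors of the complexes, 11 averaged higher with NMN (median log2 fold change 0.09). ERRFI1, an inhibitor of EGFR, was at 82.54, 128.76, 92.70 and 64.41 TPM in NMN 1 to 4, against 45.82, 39.76, 41.63 and 26.41 TPM in Vehicle 1 to 4, with no overlap (log2 fold change of 1.22 ± 0.21, adjusted p = 0.221). PTPN12, a phosphatase that acts on SHC1, was at 59.9 ± 5.31 TPM with NMN and 53.5 ± 13.8 TPM with Vehicle. SHCBP1, a protein that binds the SHC1 SH2 domain, was at 14.3 ± 3.28 TPM with NMN and 16.7 ± 1.61 TPM with Vehicle. PTPN2 and SH3KBP1, an adaptor of the CBL ligases, had log2 fold changes of 0.19 ± 0.11 and -0.31 ± 0.16.

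Of the 6 RAS GTPases, 4 averaged higher with NMN (median log2 fold change 0.07). NRAS stood at 47.8 ± 2.57 TPM with NMN and 44.6 ± 11.6 TPM with Vehicle, and HRAS at 56.3 ± 5.85 and 65.5 ± 6.79 TPM. MRAS, a relative of RAS that joins SHOC2 in activating RAF, was at 10.44, 9.59, 14.59 and 12.05 TPM in NMN 1 to 4, against 8.55, 8.74, 8.36 and 7.67 TPM in Vehicle 1 to 4. Its groups did not overlap, with a log2 fold change of 0.43 ± 0.15 (adjusted p = 0.533), and RRAS had one of 0.14 ± 0.13. Exchange factors other than SOS were low. RASGRP1 was at 4.96 ± 1.34 TPM with NMN and 4.22 ± 0.880 TPM with Vehicle, RASGRF1 at 3.76 ± 0.218 and 3.51 ± 1.26 TPM, and the other 4 of the 6 lay under the filter.

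Of 12 tested GTPase activators and SPRED genes, 8 averaged higher with NMN (median log2 fold change 0.09). Of 13 tested genes of the RAF, MEK and ERK step, scaffolds and the RAF inhibitor PEBP1 included, 10 averaged higher (median 0.09). RASA2, SPRED3 and SPRED2 had log2 fold changes of 0.25 ± 0.14, 0.28 ± 0.20 and -0.20 ± 0.17. PEBP1 ran from 313.69 to 357.6 TPM with NMN and from 262.27 to 317.57 TPM with Vehicle (log2 fold change of 0.21 ± 0.09, adjusted p = 0.688), SHOC2 had a log2 fold change of 0.31 ± 0.15 and MAP2K1 one of 0.12 ± 0.09. Of 7 tested PI3-kinase genes, 3 averaged higher and 4 lower with NMN (median log2 fold change -0.04). The regulatory subunits PIK3R2 and PIK3R3 had log2 fold changes of -0.26 ± 0.14 and 0.37 ± 0.24.

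Among 15 tested modifiers and mitochondrial partners of p66Shc, 9 averaged higher and 6 lower with NMN (median log2 fold change 0.03). SIRT1 was at 9.45, 7.01, 7.66 and 8.70 TPM in NMN 1 to 4, against 9.09, 7.46, 7.28 and 6.96 TPM in Vehicle 1 to 4, and the groups overlapped. CYCS, the cytochrome c that p66Shc oxidizes, was at 73.5 ± 9.67 TPM with NMN and 78.4 ± 6.15 TPM with Vehicle. TXN, thioredoxin, and TIMM44, of the mitochondrial import motor, had log2 fold changes of -0.26 ± 0.11 and -0.22 ± 0.13.

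**Figure D5:**
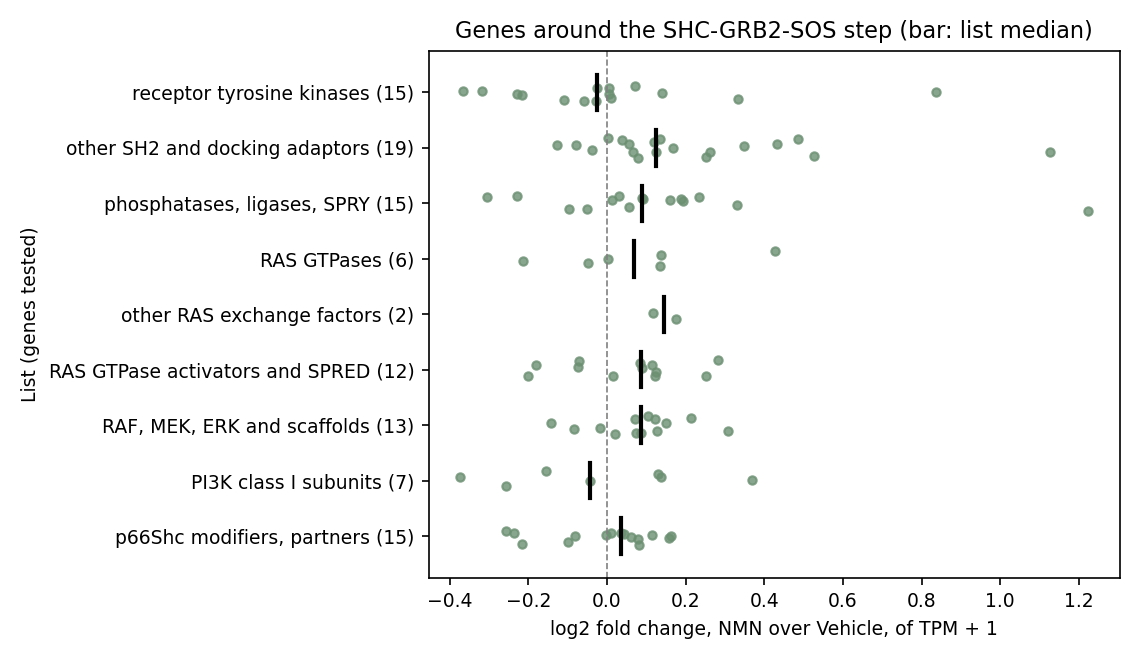
Log2 fold change of TPM + 1, NMN over Vehicle, of every tested gene in 9 lists around the SHC, GRB2 and SOS step, 1 point per gene and a black bar at each list's median. The medians lie between -0.04 and 0.15, and the points farthest to the right are ERRFI1 at 1.22 and DOK5 at 1.13.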

How the data were processed

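Whole-tumor RNA of 8 tumors, 4 NMN and 4 Vehicle by their titles, was analysed. The authors deposited TPM per gene in 1 table, with the unit per the file headers, and 0 other columns of per-sample values were left unused. Per the submitters' processing notes the tools were RSEM 1.2.8, Bowtie2 2.2.5 and HISAT2 2.1.0 and the build was GRCh38.p13, with no roles given. Strandedness, sequencing batches and the handling of mouse reads are not given in the sources used here. No label says whether the tumors are from separate mice, and the p-values therefore cover only the spread among these 8 samples, which may be technical.

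Genes at 1 TPM or more in at least 4 libraries were fitted by limma 3.58.1 in R 4.3.3, with a variance trend, on log2(TPM + 1), which understates changes of low genes. Tests were two-sided, with Benjamini-Hochberg adjustment over all 13358 genes at 0.05. Fold changes are NMN over Vehicle ± SE, levels are means ± SD (n = 4), and intervals are at 95%. Ratios of 2 members were compared by exact permutation over 70 assignments. The limma fit was tested on simulated data, and the permutation was checked on made-up values with a known answer.

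The members and lists were chosen with earlier results of these data known. All members were named, with up to 3 genes of smallest p per pathway list and the 5 genes most like SHC1. SIRT1 was always named, and other list genes were added for description after their values were seen. A few list genes that the rule names are not reported here, and the counts include them. Gene positions and coding sequences are from GENCODE 29 on GRCh38, whose primary assembly GRCh38.p13 shares, and promoter windows, found for 8 of 10 members, from RefSeq on GRCh38.p14. The other settings tried were pseudocounts of 0.1 and 5, no filter and one at 5 TPM, median-of-ratios and quantile scaling, no trend, library weights, a replicate block and each library left out.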

Additional observations from a re-analysis of the deposited data

How the results depend on the processing

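Of 152 values of the 9 tested members under other settings, 146 kept their sign and 0 passed, with a smallest adjusted p of 0.316. The other 6 were of PTPN11, at -0.0075 with median-of-ratios scaling, -0.0061 with quantile normalization, -0.0053 with library weights, -0.011 without NMN 3, -0.076 without NMN 4 and -0.083 without Vehicle 2. With 1 tumor left out, PTPN11 ran from -0.083 to 0.085, SHC1 ran from -0.29 to -0.16, SHC3 from -0.22 to -0.02, SHC4 from 0.21 to 0.41, GRB2 from -0.093 to -0.0045, SOS1 from 0.27 to 0.56, SOS2 from 0.087 to 0.27, GAB1 from 0.22 to 0.42 and GAB2 from 0.18 to 0.55. Over all genes 0 were called, against 54 with library weights and from 0 to 53 with 1 tumor left out. Of the ratios, 0 of 40 values passed. GAB1/GAB2 ran from -0.36 to 0.11 and PTPN11/GRB2 from -0.024 to 0.092 with 1 tumor left out. No scaling moved the median of all genes by over 0.1. List medians moved by less than their spread in 151 of 153 cases. With 1 tumor left out, the median ran from -0.10 to 0.06 for receptor tyrosine kinases and from -0.03 to 0.16 for RAS GTPases. It ran from -0.14 to 0.02 for PI3-kinase genes, from -0.03 to 0.06 for p66Shc partners and from -0.01 to 0.10 for GTPase activators. These medians thus took both signs. The cause of these changes was not tested.

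The replicate block gave 2 calls over all genes, none a member, and left each member's log2 fold change as it was (-0.21 for SHC1, 0.40 for SOS1). Same-numbered tumors had correlations of 0.026, 0.00094, -0.032 and -0.12 of their deviations from the group means. These values give no sign of pairing by number, and they cannot show that the tumors were unpaired. No tumor correlated best with its own number. For the ratios, sign changes within the 4 numbers cannot go below an exact p of 0.125. With 1 tumor left out it cannot go below 0.0286, which SHC1/GRB2 reached without Vehicle 1 (adjusted p = 0.114). TPM does not record depth, so the counting error of the lowest members, SHC2 and SHC4, is unknown.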

Other observations

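Paralogs of the members that are known mainly from blood cells were low in these tumors. GRAP, a relative of GRB2, averaged 0.608 ± 0.0690 TPM with NMN and 0.672 ± 0.706 TPM with Vehicle. It reached 1.72 TPM in Vehicle 4 and at most 0.42 TPM in the other Vehicle tumors. GRAP2 averaged 0.145 ± 0.0289 and 0.125 ± 0.118 TPM, and GAB3 0.0525 ± 0.0457 and 0.0950 ± 0.0520 TPM. PTPN6, the SHP1 phosphatase related to PTPN11, stood apart from them at 31.8 ± 2.34 TPM with NMN and 30.7 ± 4.48 TPM with Vehicle.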
